A study of Rattus norvegicus with 10 samples.

Results

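The genes described here are 39 genes of endothelial cells, which line blood vessels, and of mural cells, the pericytes and smooth muscle cells that wrap around them. They were named as a list, without genes of vascular endothelial growth factor ligands or receptors, and each was read from the probe set with the highest mean signal among those annotated with that symbol alone. Of the 39, 34 had such a probe set, among 14217 genes that did, and Cdh5, Cd34, Robo4, Pdgfb and Ednrb are not analysed here. Male Sprague Dawley rats aged 10 to 12 weeks gave the RNA, taken from the pituitary's neurointermediate lobe; they were either dehydrated for 3 days or kept as controls, which the title calls euhydrated. Each group had 5 Affymetrix Rat Genome 230 2.0 arrays, and each array carried RNA pooled from 5 animals of its own, so that the spread between arrays is a spread between pools. One sentence of the series' design gives the tissue as supraoptic nucleus instead, but the samples' own labels and the title do not, and the tissue is taken from them.

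Vasopressin and oxytocin are released in the neural lobe from nerve endings that abut fenestrated capillaries, through whose pores the hormones enter the blood. Endothelial cells of such capillaries carry Plvap, the protein of the pore diaphragm, and seal themselves less tightly than those of the brain, where claudin-5 closes the junctions. Mural cells set vessel calibre and stabilise the endothelium, and both partners signal to each other through angiopoietin and platelet-derived growth factor receptors.

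The deposited signals had the same trimmed mean on every array, and the arrays correlated with each other at 0.962 to 0.996 over probe sets. Values below are signals on that linear scale, and a change is the log2(signal + 5) of dehydrated minus control arrays, a scale that makes changes of dim genes look smaller. The log2 ratio of 3' to 5' control probe sets, which is higher where RNA is shorter, was 2.15 ± 0.38 for dehydrated lobes and 1.78 ± 0.48 for controls (SD, n = 5), with a two-sided p of 0.214 in an exact permutation test. A gene was tested if its probe set was among the brightest 60% over all arrays, and 29 of the 34 were. Vwf, the classical endothelial clotting factor gene, Angpt1, Nos3, Cspg4 and Tagln were dimmer and were not tested. The defining endothelial genes Pecam1, Esam, Emcn and Tek and the mural genes Rgs5 and Myh11 were among those tested, whereas Vwf was not. In a tissue homogenate, more cells of a type and more RNA per cell cannot be told apart.

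Dehydrated lobes had more transcript of the endothelial sialomucin Emcn, of the pericyte signalling regulator Rgs5 and of the peptide ligand Apln, each by 1.42 to 1.65-fold. These were the 3 of 29 tested genes (10.3%) that rose at an adjusted p under 0.05 (limma with Benjamini-Hochberg adjustment over all 18625 tested probe sets), and none fell. Over all tested probe sets 1.68% were called higher, 0.784% lower and 2.46% in either direction. At an unadjusted p under 0.05, 8 of the 29 were higher and 1 was lower, against 8.70% and 8.66% of all tested probe sets. The change was above 0 in 22 of the 29 (75.9%), with a median of 0.09, compared with 47.4% and a median of -0.01 over all tested probe sets. In the same 3 genes every dehydrated array lay above every control array, which is 10.3% of the 29, whereas 4.59% of all tested probe sets had groups that did not overlap in either direction. These shares describe the list and were not tested against other genes. Emcn and Rgs5 passed under all 22 alternatives of the processing, and Apln under 21. The rise of Apln was seen on 1 of its 2 tested probe sets. The dimmer one had a change of 0.09 (95% interval -0.29 to 0.47), and averaging both ended the call. Without dehydrated 5 and control 1, the arrays with the lowest and highest 3' to 5' ratio of their groups, the same 3 genes passed, where 3.58% of all tested probe sets were called higher.

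**Figure D1:**
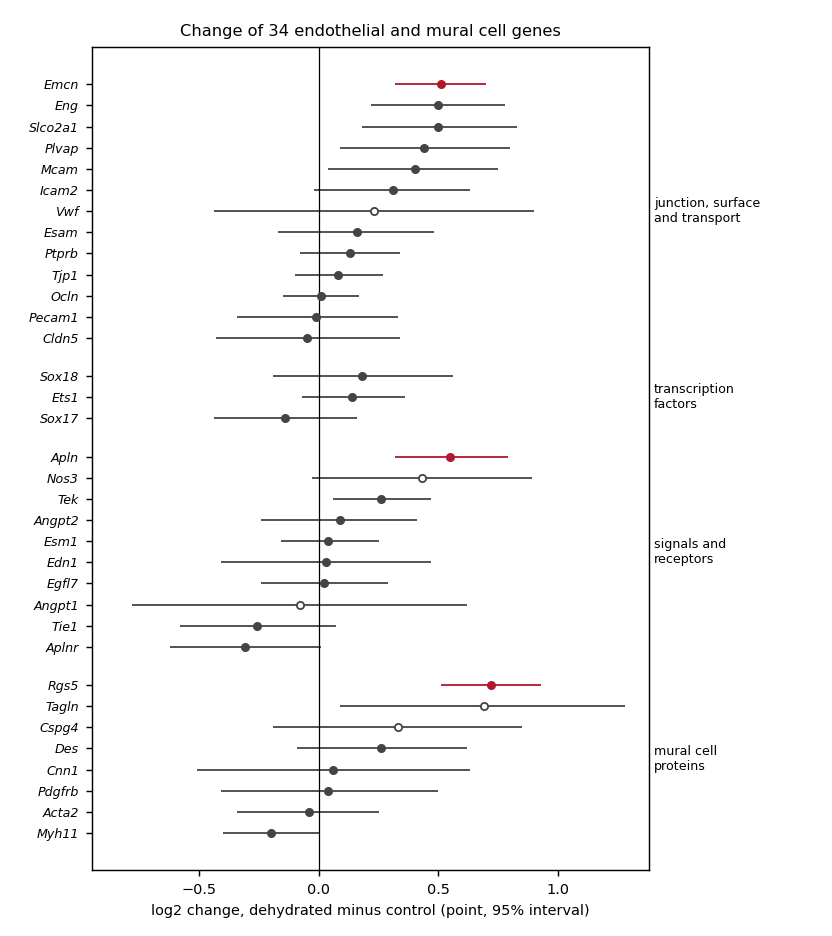
Log2 change, dehydrated minus control, of the 34 genes with a probe set, grouped by role; points are estimates, bars 95% intervals, red points passed the test and open points were not tested. Emcn, Apln and Rgs5 pass at 0.51, 0.55 and 0.72, and the lowest estimate is that of Aplnr at -0.31.

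The 250 bases before the RefSeq start of each of the 3 genes are shown because these are the members that rose. They come from assembly GRCr8, whereas the array files name no build, and are written on each gene's own strand. Emcn lies at chr2:228564289-228564538, plus strand, Apln at chrX:132091247-132091496, minus strand and Rgs5 at chr13:84380827-84381076, plus strand. Capitals mark matches on either strand to the core letters bound by ETS factors (GGAAG), by SOX factors (ACAAT) or by hypoxia-inducible factors (ACGTG), classes with known roles in vessels, and no match overlaps another.
Emcn: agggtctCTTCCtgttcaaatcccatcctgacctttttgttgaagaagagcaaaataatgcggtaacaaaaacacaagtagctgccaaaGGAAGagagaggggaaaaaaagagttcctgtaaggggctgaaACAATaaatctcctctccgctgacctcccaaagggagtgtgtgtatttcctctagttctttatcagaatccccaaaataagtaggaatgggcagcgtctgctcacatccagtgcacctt
Apln: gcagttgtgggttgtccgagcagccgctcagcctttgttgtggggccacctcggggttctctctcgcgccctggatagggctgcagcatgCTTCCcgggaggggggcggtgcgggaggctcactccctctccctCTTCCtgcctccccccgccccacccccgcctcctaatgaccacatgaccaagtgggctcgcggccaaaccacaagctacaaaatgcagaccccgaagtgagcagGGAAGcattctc
Rgs5: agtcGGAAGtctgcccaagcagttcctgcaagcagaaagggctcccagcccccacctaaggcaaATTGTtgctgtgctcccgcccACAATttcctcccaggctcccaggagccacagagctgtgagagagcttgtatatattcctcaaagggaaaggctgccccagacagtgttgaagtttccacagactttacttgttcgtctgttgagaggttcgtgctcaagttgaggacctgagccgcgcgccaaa
The ETS letters occur 2 times before Emcn, 3 times before Apln and 1 time before Rgs5, and 63.3% of 27457 promoter windows of this length hold them. The SOX letters occur 1 time before Emcn, 2 times before Rgs5 and not before Apln, and 29.6% of windows hold them. The hypoxia letters are in none of the 3 windows and in 16.9% of all. RefSeq windows matched 18 of the 34 genes, of which 12 hold the ETS, 6 the SOX and 2 the hypoxia letters (66.7%, 33.3% and 11.1%). A match is a description of the letters and not a site of binding.

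Among junction, surface and transport proteins, 1 of 12 tested genes rose (8.33%, against 1.68% of all tested probe sets). This was Emcn (Entrez Gene 295490), already counted above, which encodes endomucin, a sialomucin on the surface of capillary and venous endothelium. Its signals were 398, 377, 456, 407 and 376 on dehydrated arrays 1 to 5 and 251.5, 322, 310.5, 251 and 277 on control arrays 1 to 5. All 5 dehydrated arrays were above all 5 control arrays, with dehydrated 3 the highest and control 1 and 4 the lowest. The group means were 403 ± 32.8 against 282 ± 32.9 (SD, n = 5), a 1.42-fold rise, with a log2 change of 0.51 ± 0.09 (SE) and an adjusted p of 0.00445 by limma. Over the 22 alternatives its change lay between 0.46 and 0.56.

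Eng, which encodes endoglin, a co-receptor for ligands of the transforming growth factor beta family on endothelium, came close to the threshold. Its signals were 123, 119, 119, 89.9 and 132 on dehydrated arrays 1 to 5 and 73.6, 86.4, 84.4, 61.6 and 101 on control arrays 1 to 5. Only dehydrated 4 lay below a control array, control 5, and the other 4 dehydrated arrays were above all controls. The log2 change was 0.50 ± 0.13 SE (95% interval 0.22 to 0.78, limma adjusted p = 0.0598). Eng passed under 7 of 22 alternatives: quantile, median-centred and cyclic loess scaling, a fit that includes the 3' to 5' ratio, the brightest 40% of probe sets, and the arrays without dehydrated 4 or control 5 (adjusted p = 0.0276 to 0.0498).

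Plvap, which encodes the protein of the diaphragms in capillary fenestrae, did not pass. It had signals of 265, 239.9, 215, 145 and 155 on dehydrated arrays 1 to 5 and 118, 171, 145, 116 and 188 on control arrays 1 to 5. Dehydrated 1 to 3 were above every control array, while dehydrated 4 and 5 lay within the controls' range. Its log2 change was 0.44 (95% interval 0.09 to 0.80, limma adjusted p = 0.186). Slco2a1, a prostaglandin transporter of endothelium, had signals of 58.7, 40.9, 55.1, 41.8 and 50 on dehydrated arrays 1 to 5 and 42.9, 35, 27.1, 29.7 and 32.1 on control arrays 1 to 5. Dehydrated 2 and 4 lay just below control 1, and the other dehydrated arrays were above all controls. The change of Slco2a1 was 0.50 (95% interval 0.18 to 0.83, adjusted p = 0.0957), and its dimmer, untested probe set had a change of -0.15.

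The other adhesion genes of this group did not pass either. Mcam, an adhesion molecule of endothelium and pericytes, had a log2 change of 0.40 (95% interval 0.04 to 0.75, limma adjusted p = 0.233), with -0.19 on its dimmer probe set. Icam2, a ligand for leukocyte integrins, had signals of 94.6 to 151 in dehydrated and 76.6 to 127 in control lobes (change 0.31, adjusted p = 0.327). Pecam1, the platelet and endothelial adhesion molecule that marks endothelium in general, had signals of 54.2, 40.5, 63.7, 75.1 and 53.8 on dehydrated arrays 1 to 5 and 54, 51.3, 67.5, 46.5 and 67.5 on control arrays 1 to 5. The groups overlapped over nearly their whole range, and its 95% interval was -0.34 to 0.33 around a change of -0.01. Esam, another adhesion molecule of endothelial junctions, had a change of 0.16 (adjusted p = 0.648). Ptprb, the vascular endothelial phosphatase that acts on the receptor Tek, had a change of 0.13 (adjusted p = 0.522), and its other tested probe set had 0.14.

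None of the 3 tested tight junction genes passed. Tjp1, the scaffold protein ZO-1 that epithelia also use, had a log2 change of 0.08 (95% interval -0.10 to 0.27, limma adjusted p = 0.686). Ocln, which encodes occludin, had signals of 448 to 491 in dehydrated and 428 to 551 in control lobes. Its change was 0.01 (95% interval -0.15 to 0.17) and -0.09 on its other tested probe set, and control 1, at the top, stood apart from the other controls. Cldn5, the claudin that seals the blood-brain barrier, had signals of 36.4, 36.3, 22.8, 41.3 and 21.7 on dehydrated arrays 1 to 5 and 32, 31.3, 25.9, 35.3 and 36.1 on control arrays 1 to 5. The groups overlapped, and the change was -0.05 (95% interval -0.43 to 0.34, adjusted p = 0.930). The untested Vwf had signals of 3.1 to 14.1 in dehydrated and 2.3 to 12.9 in control lobes.

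**Figure D2:**
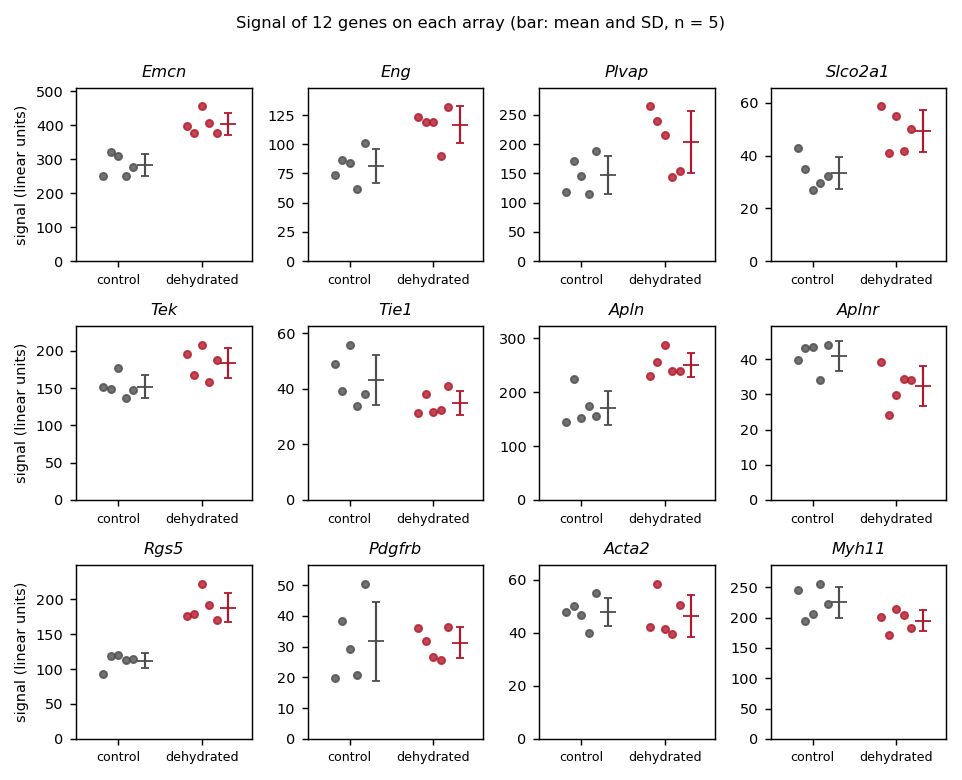
Signal on each array (linear units, axis from 0) of 12 of the genes, with the mean and SD of each group (n = 5) beside the points. The dehydrated arrays lie above all control arrays for Emcn, Apln and Rgs5, and the groups overlap in the other 9 panels.

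None of the 3 transcription factors of endothelial identity passed, and none had an unadjusted p under 0.05 on its tested probe set (limma). Ets1, an ETS family factor that lymphocytes also express, had signals of 194 to 269.5 in dehydrated and 192 to 254 in control lobes (log2 change 0.14, adjusted p = 0.494). Sox18, a SOX factor of vessel and lymphatic development, had a change of 0.18 (95% interval -0.19 to 0.56, adjusted p = 0.642). Its relative Sox17, known from arterial endothelium, had a change of -0.14 (95% interval -0.44 to 0.16, adjusted p = 0.660). The dimmer, untested Sox17 probe sets, at mean signals of 4.61 and 3.83, had changes of -0.29 and -0.58. When all probe sets were tested, the first had an adjusted p of 0.682 (limma). The other had an unadjusted p of 0.0122 and an adjusted p of 0.235.

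Of 8 tested signalling genes, Apln, already counted above, rose and none fell (12.5% higher, against 1.68% of all tested probe sets). Apln (Entrez Gene 58812) encodes apelin, a peptide made by sprouting endothelial tip cells and also known from vasopressin neurons, whose axons end in this lobe. Its signals were 229, 257, 288, 239.7 and 239 on dehydrated arrays 1 to 5 and 146, 224, 153, 175 and 156 on control arrays 1 to 5. The groups did not overlap, although control 2 came close to the lowest dehydrated array. The means were 251 ± 23.1 against 171 ± 31.7 (SD, n = 5), a 1.47-fold rise, with a log2 change of 0.55 ± 0.11 (SE) and an adjusted p of 0.0117 by limma. The other Apln probe set had signals of 27.5, 29.3, 29.9, 35.4 and 45.4 on dehydrated arrays 1 to 5 and 30.8, 40.3, 25.6, 22.9 and 37 on control arrays 1 to 5. There the groups overlapped, and the change of 0.09 did not pass (adjusted p = 0.847). Averaging both probe sets gave a change of 0.32 and ended the call (adjusted p = 0.171). Which part of the transcript each probe set reads was not tested.

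Aplnr, the receptor for apelin on endothelial cells, had the lowest change of the 29 tested genes. Its signals were 39.3, 24.3, 29.9, 34.4 and 34 on dehydrated arrays 1 to 5 and 39.8, 43.1, 43.5, 34.1 and 44.1 on control arrays 1 to 5. Dehydrated 2, 3 and 5 lay below every control array, and dehydrated 1 and 4 lay above control 4 only. The change was -0.31 (95% interval -0.62 to 0.01, limma adjusted p = 0.305), and the dimmer probe set had a change of -0.45 that did not pass when all probe sets were tested (adjusted p = 0.604).

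The angiopoietin receptor Tek, which keeps endothelium quiescent when angiopoietin 1 binds it, did not pass. It had signals of 196, 167, 208, 159 and 188 on dehydrated arrays 1 to 5 and 151, 148, 177, 136 and 147 on control arrays 1 to 5. Dehydrated 1, 3 and 5 were above all controls, and dehydrated 2 and 4 were not. Its log2 change was 0.26 (95% interval 0.06 to 0.47, limma adjusted p = 0.173). Tie1, the related orphan receptor that modulates Tek, had signals of 31.4, 38, 31.7, 32.4 and 41 on dehydrated arrays 1 to 5 and 48.8, 39.2, 55.8, 33.7 and 38.2 on control arrays 1 to 5. Dehydrated 1, 3 and 4 lay below every control array, and the change was -0.26 (95% interval -0.58 to 0.07, adjusted p = 0.412). Angpt2, the antagonist ligand released by activated endothelium, had 27.7 to 40.8 in dehydrated and 25.3 to 35.5 in control lobes (change 0.09, adjusted p = 0.818). Angpt1, the agonist ligand, was at 0.3 to 5.4 on 9 arrays and at 15.0 on dehydrated 2, and was not tested.

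The remaining signalling genes did not pass. Edn1, which encodes the vasoconstrictor endothelin 1, had a log2 change of 0.03 (95% interval -0.41 to 0.47, limma adjusted p = 0.967). Its dehydrated arrays formed a wide range, 17 to 35.1, with dehydrated 4 and 5 low. Egfl7, an endothelial secreted factor that guides vessel formation, had 0.02 (95% interval -0.24 to 0.29) and 0.05 on its other tested probe set. Esm1, the proteoglycan endocan associated with sprouting endothelium, had signals of 1100.0 ± 89.6 against 1075 ± 156 (SD, n = 5) in dehydrated and control lobes. The 95% interval of its change was -0.16 to 0.25, so that an increase as large as that of Emcn lay outside it. Nos3, the endothelial nitric oxide synthase, was not tested and had signals of 13.8 to 28.1 in dehydrated and 10.7 to 17 in control lobes.

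Among the 6 tested mural cell genes 1, already counted above, rose and none fell (16.7% higher, against 1.68% of all tested probe sets). Rgs5 (Entrez Gene 54294), a regulator that shortens G protein signalling and a common marker of pericytes, had the largest change of all 29 tested genes. Its signals were 176, 178, 222, 193 and 170.2 on dehydrated arrays 1 to 5 and 93.3, 119, 120.5, 113 and 115 on control arrays 1 to 5. The lowest dehydrated array lay clearly above the highest control array, and control 1 was the lowest of all. The means were 188 ± 21.0 against 112 ± 10.9 (SD, n = 5), a 1.65-fold rise, with a log2 change of 0.72 ± 0.10 (SE) and an adjusted p of 0.000733 by limma. Over the 22 alternatives the change lay between 0.65 and 0.77.

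Other mural genes did not pass. Pdgfrb, the receptor through which endothelium recruits pericytes, had signals of 36, 31.7, 26.6, 25.6 and 36.5 on dehydrated arrays 1 to 5 and 19.9, 38.3, 29.1, 20.6 and 50.5 on control arrays 1 to 5. The control arrays spanned a wider range than the dehydrated ones, which lay inside it, and the log2 change was 0.04 (95% interval -0.41 to 0.50, limma adjusted p = 0.946). Des, the muscle intermediate filament desmin, had a change of 0.26 (adjusted p = 0.445). Acta2, the smooth muscle actin, had signals of 39.7 to 58.5 in dehydrated and 39.9 to 54.8 in control lobes (change -0.04, 95% interval -0.34 to 0.25). Myh11, the smooth muscle myosin heavy chain, was the only one of the 29 that was lower at an unadjusted p under 0.05. Its signals were 202, 171, 214, 205 and 183 on dehydrated arrays 1 to 5 and 246, 195, 207, 256 and 223 on control arrays 1 to 5. The groups overlapped, and the change of -0.20 did not pass (adjusted p = 0.284). Cnn1, which encodes the actin-binding calponin 1 of smooth muscle, had the widest interval of the 29 genes, with signals from 29.5 on dehydrated 2 to 121.5 on dehydrated 5 and a change of 0.06 (95% interval -0.51 to 0.63). The untested Tagln, another actin-binding protein of smooth muscle, had 13.4 to 33.9 in dehydrated and 5.4 to 16 in control lobes, and the untested proteoglycan gene Cspg4 had 16.2 to 34.3 and 11.1 to 29.3. When all probe sets were tested their changes of 0.69 and 0.33 did not pass (adjusted p = 0.314 and 0.623).

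Whether related genes changed unequally was tested within arrays, as the log2 difference between a gene and its partner. Of 9 such pairs 5 had both genes tested, and p-values were adjusted over these 5 (exact two-sided permutation over all splits of the 10 arrays into groups of 5, with 0.00794 as the smallest p it can give). The difference of Apln minus its receptor gene Aplnr was 2.78 ± 0.32 in dehydrated and 1.92 ± 0.28 in control lobes (SD, n = 5), 0.86 higher in dehydrated lobes without overlap (exact permutation p = 0.00794, adjusted p = 0.0198). That of Tek minus Tie1 was 2.24 ± 0.24 and 1.72 ± 0.15 (SD, n = 5), 0.52 higher and again without overlap (exact permutation p = 0.00794, adjusted p = 0.0198). Thus each pair moved apart within arrays, although Aplnr, Tek and Tie1 did not pass the test on their own. The Apln pair, like the Rgs5 pair below, reuses values by which Apln and Rgs5 were called (changes of 0.55 and 0.72). Neither of these pairs tests the partner gene separately. Rgs5 minus Pdgfrb was 0.68 higher, with overlap (exact permutation p = 0.0238, adjusted p = 0.0397). That call ended with cyclic loess scaling, with a pseudocount of 1 and without any 1 of 8 arrays, all except dehydrated 5 and control 4 (adjusted p up to 0.0926). Plvap minus Cldn5, a protein of fenestrae against one of sealed junctions, was 0.49 higher and did not pass (exact permutation p = 0.111, adjusted p = 0.139), but it passed without dehydrated 4 (0.69, adjusted p = 0.0132). Acta2 minus Pdgfrb differed by -0.09 (exact permutation p = 0.698). With probe sets averaged the Apln pair did not pass (0.70, adjusted p = 0.0661). Without both dehydrated 5 and control 1, the differences were 0.85 for the Apln pair, 0.52 for Tek minus Tie1 and 0.82 for Rgs5 minus Pdgfrb. The first 2 were at 0.0286, the smallest p that 70 splits can give, which adjusts to 0.0714 (exact permutation), so that the lost calls say nothing about their stability.

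**Figure D3:**
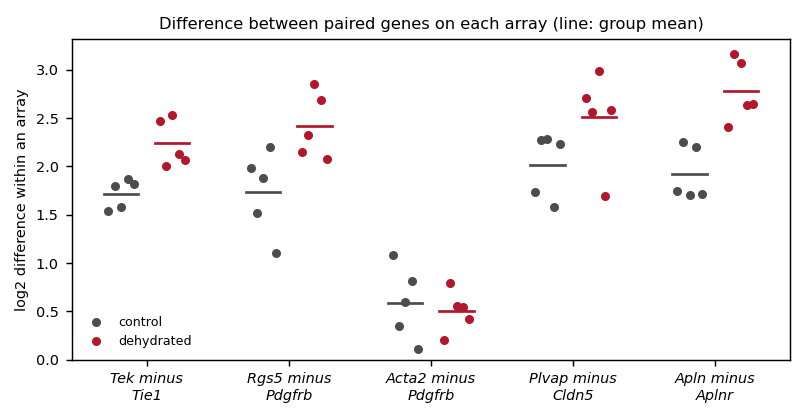
Log2 difference between the 2 genes of each tested pair on each array, controls in grey and dehydrated arrays in red, with lines at the group means. The groups do not overlap for Tek minus Tie1 and Apln minus Aplnr, and overlap for the other 3 pairs.

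The 29 tested genes also differed between arrays of the same group. Dehydrated 3 had the highest value of the 10 arrays for 7 genes, and control 4 had the lowest for 9, followed by control 1 with 5. Over all tested probe sets dehydrated 3 was highest in 9.94% and control 4 lowest in 7.25%. Measured as the deviation from a gene's mean over all arrays, the median over the 23 endothelial genes was 0.17 on dehydrated 3, 0.15 on dehydrated 1 and 0.07 on dehydrated 2, but -0.05 and -0.02 on dehydrated 4 and 5. Among control arrays it was lowest on control 4 (-0.22) and control 1 (-0.14) and highest on control 2 (0.01). The median over the 6 mural genes was lowest on control 4 (-0.35) and was 0.15 on control 5, close to the 0.17 of dehydrated 2. Dehydrated 4 and 5, with the lowest endothelial medians of their group, also had its lowest 3' to 5' ratios (2.05 and 1.61), whereas control 1 and 4, with the lowest medians of theirs, had its highest (2.52 and 1.91). With the ratio as a covariate Emcn, Apln, Rgs5 and Eng passed and 19 of 29 changes were above 0.

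**Figure D4:**
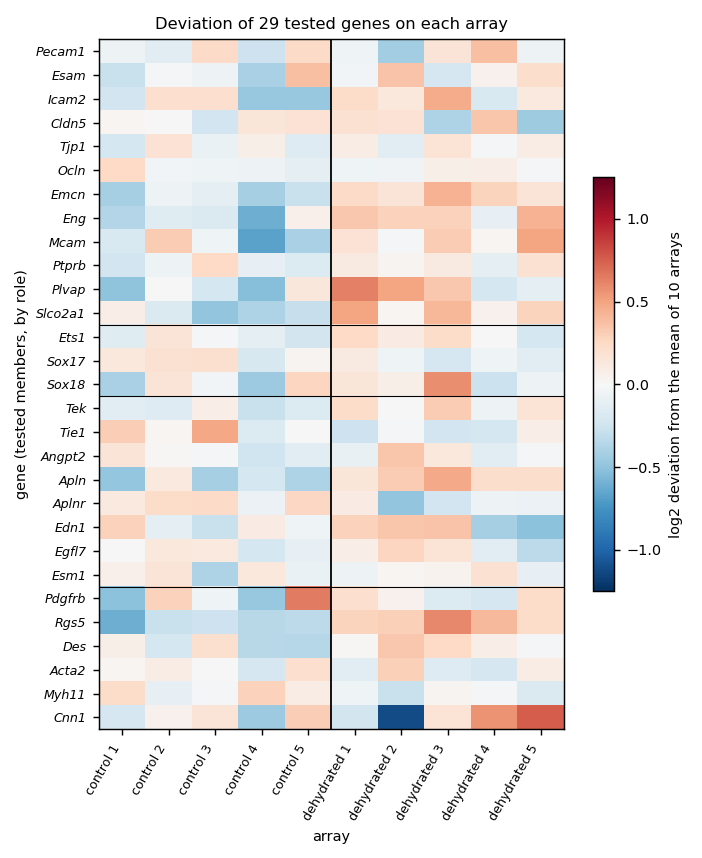
Deviation of each tested gene on each array from its mean over the 10 arrays (log2 units, red above and blue below), with genes by role in rows and arrays in columns, controls to the left of the line. Emcn, Apln and Rgs5 are red on all 5 dehydrated arrays, and control 4 has the lowest value for 9 genes.

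Other vascular genes were read from 5 further lists, in which 8 of 79 tested genes rose and none fell (10.1%, against 1.68% and 0.784% of all tested probe sets). At an unadjusted p under 0.05, 19 were higher and 5 lower (24.1% and 6.33%, limma), against 8.70% and 8.66% of all tested probe sets. Of 26 other endothelial genes, 4 rose. S1pr1, the sphingosine 1-phosphate receptor that stabilises endothelial junctions, had mean signals of 669 ± 80.8 against 482 ± 53.1 (SD, n = 5) in dehydrated and control lobes and rose by 0.47 (log2; adjusted p = 0.0130 by limma). Ecscr, an endothelial surface protein of chemotaxis, rose by 0.60, the lectin-like receptor Cd93 by 0.52 and the tetraspanin-like protein Tm4sf1 by 0.40 (adjusted p = 0.0234, 0.0274 and 0.0294). Of 9 basement membrane genes, the collagen chain Col4a1 rose by 0.63 and the laminin chain Lama4 by 0.48 (adjusted p = 0.00381 and 0.0426). Of 19 further mural genes Tpm2, a tropomyosin of smooth muscle, rose by 0.79 (adjusted p = 0.0102). Of 9 barrier and transport genes Slco1c1, a thyroid hormone transporter of brain endothelium, rose by 0.43 (adjusted p = 0.0319). None of 16 arteriovenous and Notch genes passed, and 1 was higher and 2 were lower at an unadjusted p under 0.05 (6.25% and 12.5%). These shares are near the 8.70% and 8.66% of all tested probe sets.

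Most of these 8 calls were less stable than those of Emcn and Rgs5. Col4a1 passed under all 22 alternatives. Tpm2 passed under 21 and S1pr1 under 19, and both calls ended when probe sets were averaged (changes of 0.05 and -0.02), that of S1pr1 also without an intensity trend or without dehydrated 3. Leaving out dehydrated 2, dehydrated 3, control 1 or control 2 ended the call of Ecscr (adjusted p at most 0.0826). For Slco1c1 the arrays that did so were dehydrated 3 and 4 and control 3, 4 and 5, and for Tm4sf1 dehydrated 1 and 3 and control 1, 4 and 5 (adjusted p at most 0.0908 and 0.101 under any alternative). Cd93 lost its call without any 1 of dehydrated 1 to 3 and control 2 to 4. Lama4 lost it without dehydrated 1, dehydrated 3, dehydrated 4 or any 1 control array, and both calls also ended with probe sets averaged (adjusted p = 0.675 and 0.514). With the 3' to 5' ratio fitted, the calls of Slco1c1, Cd93 and Lama4 were lost and that of Sparc, a matricellular protein gene, was gained, which left 6. The count of 8 was 2 without dehydrated 3, 5 without dehydrated 1 or control 1, 2, 3 or 5, and 4 without control 4. Stab1, a scavenger receptor of sinusoidal endothelium and macrophages, named here after its value was seen, had a change of -0.68 that did not pass (adjusted p = 0.0572) and was called lower without dehydrated 5, with or without control 1, and with probe sets averaged.

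**Figure D5:**
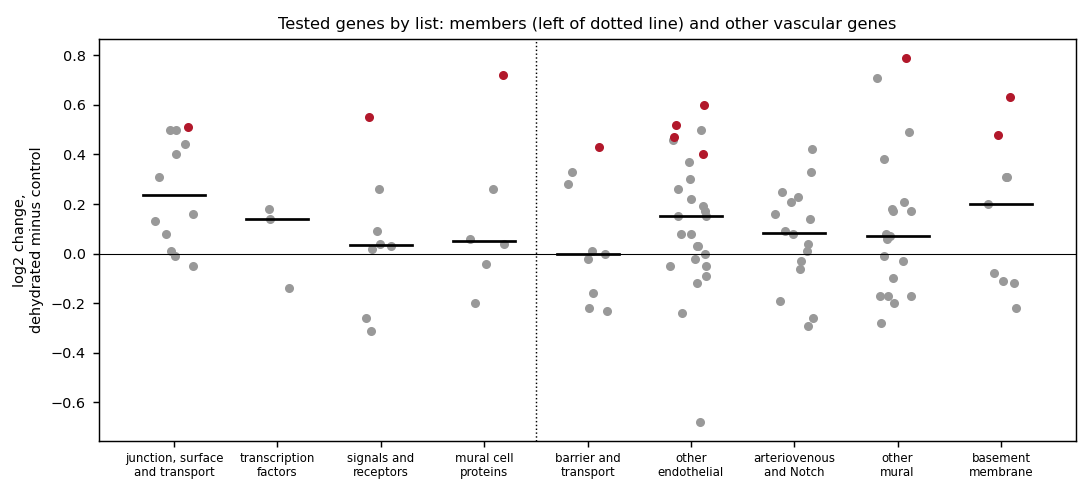
Log2 change, dehydrated minus control, of the tested genes of each list, members to the left of the dotted line and other vascular genes to the right; red points passed the test and black lines are medians. The 3 members and 8 other genes that passed lie between 0.40 and 0.79, and no gene passed below 0.

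Some markers of other cells differed between the groups as well, and for each list the genes with the highest mean signal are given along with those that passed. Fibroblast and meningeal genes, which mark the connective tissue around vessels, had a summed signal of 10970 to 13400 in dehydrated and 8071 to 8857 in control lobes without overlap, of which Mgp alone made up a mean of 5104 and 2544. Of the 12, 4 rose (33.3%) and none fell, against 1.68% called higher and 0.784% lower of all tested probe sets. Mgp rose by 0.99, Dcn by 0.43, Lum by 0.55 and Postn by 1.24 in log2 terms (adjusted p at most 0.00895, limma). The call of Dcn ended without an intensity trend (adjusted p = 0.055). Changes below 0 that did not pass were those of Fmod, whose dehydrated arrays all lay below the controls (-0.35, unadjusted p = 0.0144, adjusted p = 0.169), Col1a2 (-0.17) and Ogn (-0.15). The 8 pituicyte and astroglia genes had sums of 4273 to 4855 and 3575 to 4095, also without overlap. Sums of the 13 junction, surface and transport members did not overlap either (2165 to 2442 and 1812 to 2129). Nor did those of the 31 other endothelial genes (3243 to 3716 and 2894 to 3200), whereas the remaining member and vascular lists overlapped. Of the 8 pituicyte and astroglia genes, Slc1a3, Lhx2 and Gfap rose by 0.36, 0.39 and 2.38 (37.5% of the list). The call of Slc1a3 ended with averaged probe sets (0.04, adjusted p = 0.919) and without an intensity trend. Vim, at 0.24, did not pass (adjusted p = 0.145), nor did Aqp4, S100b and Rax, whose changes were below 0 (-0.22, -0.21 and -0.19).

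Sums of 12 macrophage genes were 1459 to 2200 in dehydrated and 1380 to 1853 in control lobes. Of 9 tested, 1 rose (11.1%, against 1.68% of all tested probe sets) and none fell. That gene, Aif1, rose by 0.42, a call lost without any 1 of dehydrated 1, 3 and 4 and control 2, 3 and 5 (limma adjusted p at most 0.417 under any alternative). The brightest of that list, the complement genes C1qa, C1qc and C1qb, had changes of 0.37, 0.19 and 0.24 that did not pass. Cd68 had the change farthest from 0 of the list, -0.74, in the other direction (unadjusted p = 0.00332, adjusted p = 0.0810), and Mrc1 was at -0.32 (adjusted p = 0.294). Changes were above 0 in 7 of the 9, and Tyrobp, at 0.47, did not pass (limma unadjusted p = 0.00882, adjusted p = 0.133). At an unadjusted p under 0.05, 3 were higher and 1 was lower (33.3% and 11.1%, against 8.70% and 8.66% of all tested probe sets). In markers of blood cells, which vessels hold, no gene passed: 3 erythrocyte genes summed to 2816 to 3574 and 2382 to 3042 and 4 platelet genes to 112 to 169 and 85.0 to 158. Hbb, the haemoglobin beta gene, had a change of 0.24 (adjusted p = 0.191). It was the 1 of 4 tested blood genes that was higher at an unadjusted p under 0.05, against 8.70% of all tested probe sets. Alas2, Pf4 and Itga2b had -0.22, -0.18 and 0.33. The 4 melanotroph genes summed to 2683 to 3174 and 3117 to 3509. Pcsk2 fell, with a change of -0.88, and Drd2, Pomc and Tbx19 did not pass (-0.08, -0.09 and -0.01). The 7 anterior lobe genes summed to 4825 to 9396 and 2576 to 7963, with Fshb lower by a called change of -0.86 and Gh1, Cga and Prl at 0.38, 0.32 and 0.00, which did not pass. Tshb had the change farthest from 0 of that list, 1.17, in the other direction to Fshb, and did not pass (limma unadjusted p = 0.0388, adjusted p = 0.260). Postn, Gfap, Aif1, Pcsk2, Fshb, Tshb, Fmod, Col1a2, Ogn, Aqp4, S100b, Rax, Cd68, Mrc1 and Tyrobp are not among the brightest of their lists and were chosen after their values were seen. No gene of these lists was at 0 on any array. The part of these cells in the changes of Emcn, Apln and Rgs5, and of the other vascular genes that rose, was not tested.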

How the data were processed

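The deposited table holds 1 linear intensity per probe set and array, made by the authors with GCOS 1.2 per the submitters' processing notes. On all 10 arrays the deposited intensity has the same mean after 2% of probe sets is trimmed at each end, so differences in total signal between arrays are not kept. Of 31099 probe sets, 57 controls were left out. The platform annotation gives 1 symbol for 20826 of the rest, several for 436 and none for 9780. A gene was read from its 1-symbol probe set with the highest mean signal, and all 34 gene identifiers were found in the GRCr8 table of RefSeq. Promoter windows came from RefSeq, GRCr8.

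The brightest 60% of probe sets by mean log2 value (18625) were tested with limma 3.58.1 in R 4.3.3 (lmFit, eBayes with trend) on log2(intensity + 5), with Benjamini-Hochberg adjustment over all of them and a threshold of 0.05. The labels give no replicate numbers or batches, so arrays are numbered within each group by accession. The p-values set the difference between groups against the spread between pools. Simulated data of 18625 probe sets for this comparison held 50 changes each of 0.5, 1, 2 and 3 (log2). Of changes of 0.5, 46% were recovered, and of changes of 1, 92%, and 9 of 178 calls were false. All members were named, the other vascular genes that passed and up to 3 markers per cell type with the highest mean signal, where tested, with exceptions marked. The members and lists were chosen with earlier results of these data known. Figures were drawn with matplotlib 3.10.9, and permutation tests were run in Python 3.11.15. The alternatives were other scalings (quantile, median, cyclic loess), pseudocounts of 1 and 20, no filter or the brightest 40%, no trend, robust eBayes, a fit with the 3' to 5' ratio, averaged probe sets, and arrays left out.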

Additional observations from a re-analysis of the deposited data

Results flagged for a closer look

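In 4 of 68 groups of 5 arrays tested, 1 array stood apart from the other 4 by Dixon's ratio of its gap to the group's range. The ratio was taken on log2(signal + 5), not on the linear signals given below. Its critical value was 0.71, and chance gives about 1 in 20. For Rgs5, control 1 had a signal of 93.3 and the other controls 113 to 120.5 (ratio 0.748). For Eng, dehydrated 4 had 89.9 and the others of its group 119 to 132 (ratio 0.731), and Eng passed without that array. For Ocln, control 1 had 550.7 and the other controls 428 to 451 (ratio 0.789). For the dim, untested Angpt1, dehydrated 2 had 15.0 and the others of its group 0.4 to 1.8 (ratio 0.824).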

How the results depend on the processing

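No paired analysis was possible because the labels give no replicate numbers. Emcn and Rgs5 passed under all 22 alternatives. The number of members that passed was 2 to 4 under all 22, and 3 to 4 when each array was left out in turn. Of the 29 tested members 21 to 23 had a change above 0 under the other scalings, against 22. With 1 array left out, this count was 18 (without control 4) to 23 (without control 5). Of all tested probe sets, 458 passed, 240 without an intensity trend, 1398 without dehydrated 5 and control 1 together, and 218 (without dehydrated 3) to 1156 (without dehydrated 5) when 1 array was left out. With each array centred on its median 569 passed, 80.1% of them higher, against 68.1% in the main analysis. Among other vascular genes 8 passed, 4 without a filter, 3 without a trend, 5 with averaged probe sets, and 2 to 10 when 1 array was left out. Of 5 pairs, 3 passed, 2 to 3 with 1 array left out, and 0 without dehydrated 5 and control 1 together, where the 3 differences were 0.52, 0.85 and 0.82 and 2 pairs were at the smallest p that 70 splits allow. S1pr1 changed sign with averaged probe sets (-0.02, adjusted p = 0.977). Apart from the smaller number of splits for the pairs, the cause of these differences was not tested. Of 9 planned pairs, 4 were not run because a gene lacked a tested probe set. In simulated data with 5 arrays a group, changes of 0.5 were often missed, with 46% recovered. That simulation gave 178 calls against the 458 found here, so its share need not hold for these data. A further 5 members were too dim to test.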
